A study of Homo sapiens with 12 samples.

Results

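HEPM cells transfected with the K139Q form of MSX1 were compared with HEPM cells transfected with wild-type MSX1, by RNA-seq, with 3 libraries in each group and all 666 genes of the deposited expression table. The 6 libraries are a subset of 12. The other groups are K139R (3 libraries) and the empty vector (Vector, 3 libraries), and Vector serves here as the reference level. HEPM is a cell line of human embryonic palatal mesenchyme per the labels, whereas the study's methods name the corresponding mouse cells. All gene identifiers in the table are human.

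The K139Q group received a plasmid with MSX1 in which glutamine replaces the lysine that the name K139Q gives, the MSX1 group a plasmid with wild-type MSX1, the K139R group one with arginine at this residue, and the Vector group the empty plasmid. All groups share the plasmid transfection and, per the titles, a time of 8 h, and all keep the endogenous MSX1 gene. In the library names, both mutants carry the label of a substitution at another residue number, with no gene named. The titles, which match the study's groups, were followed here. The study's methods describe a plasmid that encodes GFP-tagged MSX1, and 3 biological replicates per group. The question is whether the acetylation mimic gives another transcriptome than wild-type MSX1.

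MSX1 is a homeodomain transcription factor of the neural crest and its derivatives, and loss of its function causes cleft palate and missing teeth in mice and humans. Homeodomain proteins bind short AT-rich DNA motifs and MSX1 acts mainly as a repressor. Acetylation removes the positive charge of a lysine side chain, and glutamine, which is uncharged, is used to imitate that state. Immediate early genes are switched on within minutes by growth factor, stress and MAP kinase signals without new protein synthesis. Replication-dependent histone genes are transcribed mainly during DNA replication, and most of their mRNAs end in a stem-loop in place of a poly(A) tail.

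The authors listed these 666 genes because they differed between MSX1 and Vector, in the same MSX1 libraries that are the comparator here. The table holds no other genes, so genes that differ only between K139Q and MSX1 were not analysed here. Each value below is an expression value recovered from the deposited scaled table, in steps of 0.01. The sources used here give neither its unit nor the reads obtained per library, although a target depth is stated. The counting error of a value is therefore unknown, and levels are not compared between genes. A log2 fold change is the difference of mean log2(value + 1) between groups from limma, which understates the change of low genes. Tested were the 534 genes whose mean reached 1 in any of the 4 groups, and the other 132 were too low.

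Few listed genes separated K139Q from MSX1. Of 534 tested genes, 5 (0.936%) were higher in K139Q past an adjusted p of 0.05 from limma, and 0 were lower. The immediate early transcription factor genes EGR1 and FOSB rose in K139Q over the MSX1 group, which was itself above Vector. The histone genes H3C2, H1-2 and H2BC5, which are below Vector in the MSX1 group, rose to K139Q levels between 0.786 and 1.23 times the Vector mean. Without adjustment, 57 genes (10.7%) were higher and 13 (2.43%) lower at p under 0.05 from limma. With an intensity trend in limma's variance, 3 genes passed, all of them higher. In bulk RNA, a change in the share of a cell type and a change per cell cannot be told apart.

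The sizes were small across the table. The median log2 fold change of K139Q over MSX1 was 0.03, with quartiles of -0.17 and 0.27, and 284 genes were positive and 250 negative. Only 13 genes reached a log2 fold change of 1 in size, of which 11 were higher in K139Q, and 3 of them passed the adjusted p. The standard error (SE) was 0.22 at the median gene. For 440 genes (82.4%), the 95% interval of the log2 fold change lay within 1 on either side of 0. A gene that did not pass is not thereby shown to be equal in the 2 groups.

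**Figure D1:**
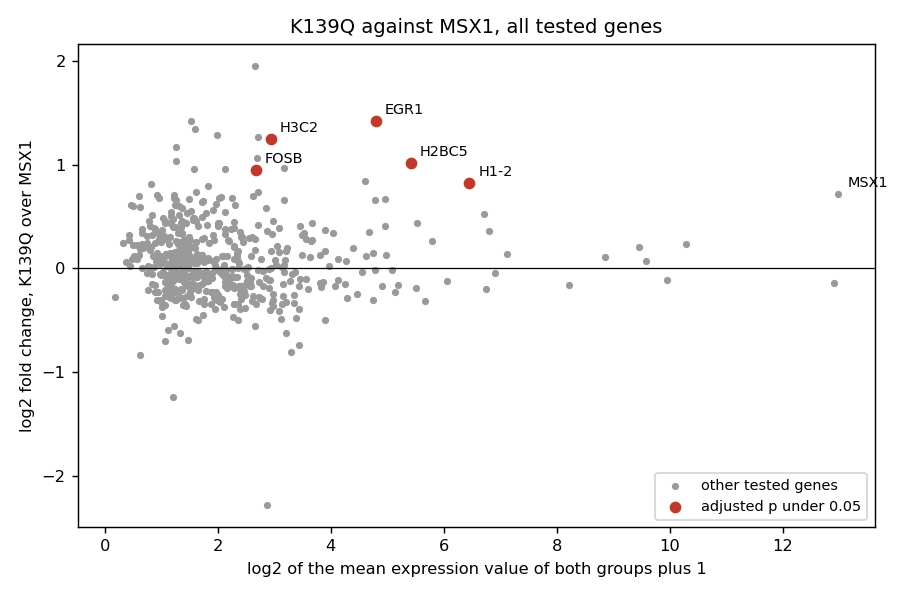
Log2 fold change of K139Q over MSX1 (y axis) against the log2 of the mean expression value of both groups plus 1 (x axis) for the 534 tested genes. Red points are the 5 genes past an adjusted p of 0.05 from limma and lie between 0.83 and 1.42, and MSX1 itself, at 0.72, did not pass.

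MSX1 transcripts check only whether a library carries an MSX1 plasmid or the empty one. They cannot check which form of MSX1 it carries. The K139R libraries 1, 2 and 3, at 13561, 7211 and 5812, spread over the values of both K139Q and MSX1. MSX1 (ENSG00000163132) had values of 8560, 13893 and 8006 in the K139Q libraries 1, 2 and 3, against 6554, 4672 and 6959 in the MSX1 libraries and 20.3, 17.2 and 18.7 in the Vector libraries. Every K139Q library lay above every MSX1 library, with K139Q library 2 the highest. The log2 fold change was 0.72 (SE 0.30, 95% interval 0.09 to 1.35, limma adjusted p = 0.286). The exact two-sided permutation p was 0.1, the smallest that 3 libraries against 3 allow. Plasmid and endogenous transcripts are counted together. MSX1 transcript level thus moved with the group in the comparison of K139Q with MSX1, and its part in those results was not tested.

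Over the listed genes, the K139Q libraries were more spread than the MSX1 libraries. The authors chose these genes on the same MSX1 libraries, and what part that choice has in the spread was not tested. Over the tested genes, the Euclidean distance on the log2 scale was 10.8 to 11.8 within K139Q and 7.54 to 9.25 within MSX1, beside 9.55 to 13.5 between the groups. The median difference from the MSX1 mean was 0.06, 0.17 and -0.12 in K139Q libraries 1, 2 and 3, and library 2 was the highest of the 3 for 298 of 534 genes. Across the 511 genes with a GC content (95.7%), Spearman's rho between GC content and the log2 fold change was -0.35, as a description over genes that share these 6 libraries. The trend was uneven: the slope of the difference from the MSX1 mean per 10 points of GC content was -0.27, 0.00 and -0.13 in K139Q libraries 1, 2 and 3. The table holds 2 of 12 listed mesenchymal markers, COL1A1 and S100A4, so it cannot check the cell type. Neither differed past the test (log2 fold change -0.17 and -0.34, limma adjusted p = 0.785 and 0.614).

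The 5 genes past the test fall into 2 of the listed gene groups. Their RefSeq promoters are printed because each of these genes passed the test, and 5 of 5 genes matched an entry. The other members of the 2 groups were not scanned, so the motif counts describe these 5 genes only. Shown are the 250 bases before the start on the gene's strand, from GRCh38.p14, 5′ to 3′. Capitals mark matches, on either strand, to the CArG box (the site of serum response factor), to TGACGTCA (the cAMP response element), to CCAAT (the site of NF-Y), to TATAAA (a form of the TATA box) and to TAATTG (a homeodomain core).
EGR1, chr5:138465229-138465478, plus strand: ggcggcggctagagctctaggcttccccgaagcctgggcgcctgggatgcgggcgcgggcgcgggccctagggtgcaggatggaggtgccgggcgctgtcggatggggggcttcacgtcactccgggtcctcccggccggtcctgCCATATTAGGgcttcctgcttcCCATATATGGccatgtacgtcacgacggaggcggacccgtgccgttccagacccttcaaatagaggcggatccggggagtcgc
FOSB, chr19:45467746-45467995, plus strand: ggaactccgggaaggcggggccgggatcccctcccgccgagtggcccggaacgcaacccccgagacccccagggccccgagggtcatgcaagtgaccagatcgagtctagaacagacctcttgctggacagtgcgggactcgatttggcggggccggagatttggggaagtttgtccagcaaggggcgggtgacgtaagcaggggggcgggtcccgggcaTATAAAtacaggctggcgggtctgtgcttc
H3C2, chr6:26032100-26032349, minus strand: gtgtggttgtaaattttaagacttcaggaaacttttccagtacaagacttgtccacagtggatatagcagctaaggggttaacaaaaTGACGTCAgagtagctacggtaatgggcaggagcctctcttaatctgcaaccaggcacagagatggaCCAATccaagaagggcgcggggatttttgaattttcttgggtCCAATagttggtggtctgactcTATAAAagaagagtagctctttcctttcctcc
H1-2, chr6:26056471-26056720, minus strand: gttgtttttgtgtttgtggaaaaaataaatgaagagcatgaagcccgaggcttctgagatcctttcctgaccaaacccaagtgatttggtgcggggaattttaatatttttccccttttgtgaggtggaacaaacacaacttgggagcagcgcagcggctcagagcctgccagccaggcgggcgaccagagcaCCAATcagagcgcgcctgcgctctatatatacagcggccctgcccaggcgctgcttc
H2BC5, chr6:26157871-26158120, plus strand: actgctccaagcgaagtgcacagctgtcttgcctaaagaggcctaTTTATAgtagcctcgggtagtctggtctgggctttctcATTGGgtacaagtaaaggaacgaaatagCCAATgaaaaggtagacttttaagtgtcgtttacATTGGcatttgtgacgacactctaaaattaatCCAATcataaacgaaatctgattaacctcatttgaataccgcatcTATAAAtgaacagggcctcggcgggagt

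The EGR1 window held 2 CArG boxes, a motif found in 1.14% of 27305 RefSeq promoter windows of this length, and FOSB held none in this window. H3C2 held the only TGACGTCA (1.77% of windows). Each of the 3 histone windows held CCAAT, which 33% of windows hold, with 4 matches in H2BC5, 2 in H3C2 and 1 in H1-2. TATAAA (11.1% of windows) was present in FOSB, H3C2 and H2BC5. TAATTG, found in 6.87% of windows, was in none of the 5. The motifs do not overlap each other here, and a match describes letters, not a bound site.

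EGR1 (ENSG00000120738), a zinc finger transcription factor induced by growth factors and stress, gave the smallest p of the table. Its values were 44.2, 48.0 and 26.6 in the K139Q libraries, against 15.4, 10.6 and 15.7 in the MSX1 libraries and 4.95, 4.53 and 4.04 in the Vector libraries. All K139Q libraries lay above all MSX1 libraries, and these above all Vector libraries. The mean was 39.6 ± 11.4 (SD, n = 3) in K139Q and 13.9 ± 2.89 in MSX1, a ratio of 2.85. EGR1 rose by 1.42 on the log2 scale (SE 0.23, limma adjusted p = 0.013), and it passed under each of the 18 alternatives that gave a p.

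FOSB (ENSG00000125740), a subunit of the AP-1 transcription factor, rose as well. Its values were 8.25, 7.51 and 6.42 in K139Q, against 4.38, 2.76 and 3.01 in MSX1 and 1.15, 1.05 and 1.04 in Vector. The 3 groups did not overlap. The log2 fold change was 0.95 (SE 0.18, limma adjusted p = 0.0209) and the ratio of means was 2.19. The call was lost without K139Q library 1 (limma adjusted p = 0.0995), K139Q library 2 (0.0774), MSX1 library 2 (0.115) or MSX1 library 3 (0.0869), with a pseudocount of 0.1 (0.056) and with the replicate block by library names (0.0532).

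The list of immediate early genes held 30 genes, of which 6 were in the table and tested. Of these, 2 rose and 0 fell, beside 0.936% and 0% of all tested genes. The other 4, JUNB, EGR3, ZFP36 and IER5L, did not pass. All 6 had a positive log2 fold change, with a median of 0.56 beside 0.03 over all tested genes. In 4 of the 6, every K139Q library lay above every MSX1 library, a pattern that 15.2% of all tested genes showed in this direction. The authors had listed all 6 as different from Vector in MSX1, and their median log2 fold change over Vector was 1.89 in K139Q and 1.30 in MSX1.

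EGR3, a relative of EGR1, had low values of 1.60, 2.90 and 1.26 in K139Q, against 0.63, 0.83 and 0.86 in MSX1 and 0.37, 0.14 and 0.49 in Vector. The K139Q and MSX1 libraries did not overlap, but the difference did not pass (log2 fold change 0.68, SE 0.21, limma adjusted p = 0.181). JUNB, another AP-1 subunit, had 41.0, 66.3 and 50.6 in K139Q, against 40.3, 33.2 and 40.5 in MSX1. Its lowest K139Q library lay just above its highest MSX1 library (log2 fold change 0.44, limma adjusted p = 0.541). ZFP36, which promotes the decay of cytokine mRNAs, and IER5L overlapped between the groups, both with a log2 fold change of 0.28 (limma adjusted p = 0.64 and 0.709).

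**Figure D2:**
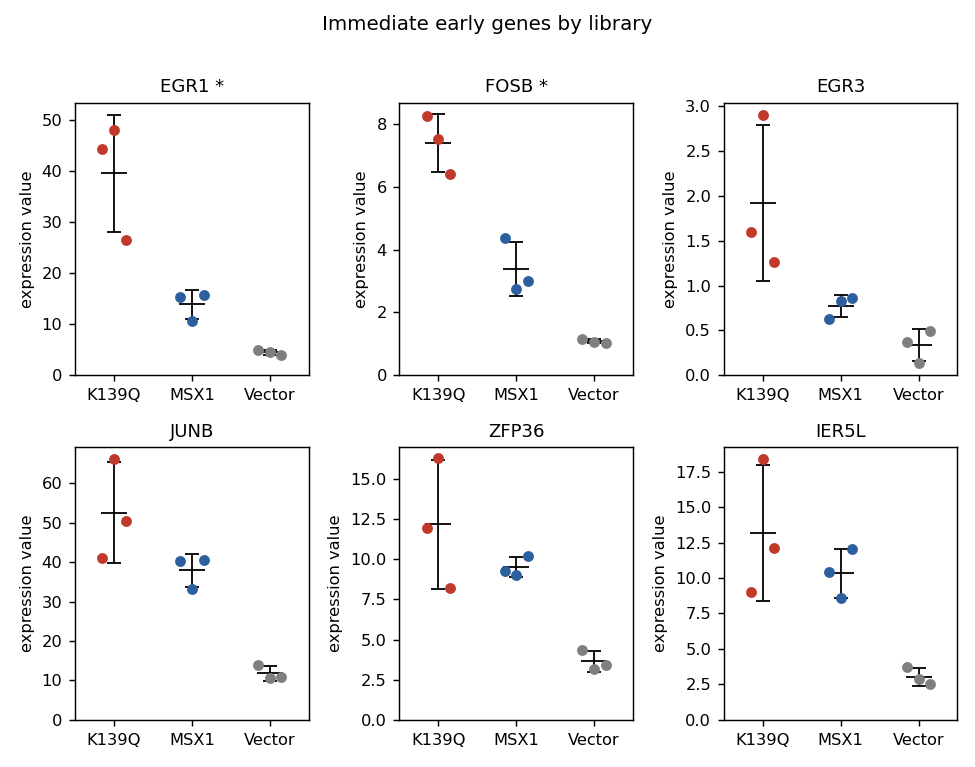
Expression value (y axis, linear, from 0) of the 6 tested immediate early genes in the K139Q, MSX1 and Vector groups (x axis). Points are libraries in replicate order, bars are the mean and SD of 3 libraries, and the star marks EGR1 and FOSB, which passed the adjusted p. All 6 genes lie above Vector in K139Q and MSX1, and EGR1, FOSB, EGR3 and JUNB have every K139Q library above every MSX1 library.

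Feedback genes of MAP kinase signaling, which limit the signals that induce immediate early genes, were nearly missing from the table. Of 16 listed MAP kinase feedback genes only DUSP16, a phosphatase that acts on stress-activated kinases, was in the table. DUSP16 had 36.7, 31.0 and 23.8 in K139Q, against 17.6, 14.7 and 16.5 in MSX1 and 35.0, 24.3 and 31.8 in Vector. The K139Q libraries lay above the MSX1 libraries and within the range of Vector or close to it, and the difference did not pass (log2 fold change 0.85, SE 0.20, limma adjusted p = 0.0893). It passed without K139Q library 3 (limma adjusted p = 0.0365) and after removal of the GC trend (0.0276).

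Histone genes formed the other group. Of 60 listed histone genes, 7 were in the table, and all were lower in MSX1 than in Vector by their means. In K139Q, 3 of these 7 rose over MSX1 and 0 fell, beside 0.936% and 0% of all tested genes. K139R also had a positive median log2 fold change over MSX1 for these 7 genes, 0.58. In all 7, every K139Q library lay above every MSX1 library, beside 15.2% of all tested genes, and their median log2 fold change was 0.83. Among the 150 tested genes that were lower in MSX1 than in Vector, 60 (40.0%) showed this pattern and the median was 0.38. The authors chose the genes on the same MSX1 libraries, and what part that choice has in the direction was not tested.

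H3C2 (ENSG00000286522), a gene of the core histone H3, had 6.81, 11.4 and 11.4 in K139Q, against 3.17, 4.28 and 3.09 in MSX1 and 8.63, 8.42 and 7.01 in Vector. The K139Q libraries spanned the Vector range and lay above all MSX1 libraries. The log2 fold change was 1.25 (SE 0.22, limma adjusted p = 0.016). Its call was lost without K139Q library 2 (limma adjusted p = 0.0774), MSX1 library 1 (0.0826) or MSX1 library 3 (0.0588), and with the replicate block by library names (0.0532).

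H1-2 (ENSG00000187837), a linker histone gene, had 104, 117 and 112 in K139Q, against 61.6, 57.2 and 67.8 in MSX1 and 152, 124 and 147 in Vector. The 3 groups did not overlap, and K139Q lay between the other two. The log2 fold change was 0.83 (SE 0.16, limma adjusted p = 0.0207). With the batch number of the labels as a replicate block, the adjusted p was 0.0553, and under quantile normalization the log2 fold change was 0.48 (limma adjusted p = 0.223). It was also lost without K139Q library 2 (0.0774), MSX1 library 1 (0.0971) or MSX1 library 2 (0.113), with a pseudocount of 0.1 (0.0738) and with an intensity trend (0.056).

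H2BC5 (ENSG00000158373), a gene of the core histone H2B, had 42.6, 71.6 and 55.9 in K139Q, against 23.3, 27.5 and 30.4 in MSX1 and 62.1, 45.4 and 52.9 in Vector. All K139Q libraries lay above all MSX1 libraries and around the Vector libraries. The log2 fold change was 1.02 (SE 0.21, limma adjusted p = 0.0293). The replicate block gave an adjusted p of 0.0712 and the removal of a GC trend one of 0.0949 from limma. The call was lost without K139Q library 2 (0.143), K139Q library 3 (0.0563), MSX1 library 1 (0.18), MSX1 library 2 (0.113) or MSX1 library 3 (0.0588), with a pseudocount of 0.1 (0.0738) and with an intensity trend (0.056).

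H1-4, H2BC6, H4C5 and H4C11 did not pass. H1-4, another linker histone gene, had 7.03, 8.94 and 6.98 in K139Q, against 4.57, 5.40 and 4.29 in MSX1, with a log2 fold change of 0.59 (limma adjusted p = 0.205, and 0.0462 after removal of the GC trend). H4C5, a gene of histone H4, had 35.3, 31.3 and 45.5 in K139Q, against 22.6, 29.2 and 18.1 in MSX1 (log2 fold change 0.67, limma adjusted p = 0.227). H4C11 had a log2 fold change of 0.66 with a SE of 0.84, and H2BC6, whose MSX1 libraries were at 0.30 to 0.44, one of 1.17 (limma adjusted p = 0.771 and 0.205). Histone genes resemble each other closely, and reads may be shared among them.

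Libraries were selected by poly(A), which most of these histone mRNAs lack, so the transcripts that the selection retains are a part of the whole. RN7SL1, the RNA of the signal recognition particle, has no poly(A) tail. It had 3328, 8581 and 11597 in K139Q, against 7924, 7186 and 7717 in MSX1 and 17971, 15830 and 11817 in Vector. It was highest in Vector, and the K139Q libraries lay on both sides of the MSX1 libraries. Its log2 fold change of K139Q over MSX1 was -0.14 (SE 0.42, limma adjusted p = 0.903). The part of such retention in the histone values was not tested.

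**Figure D3:**
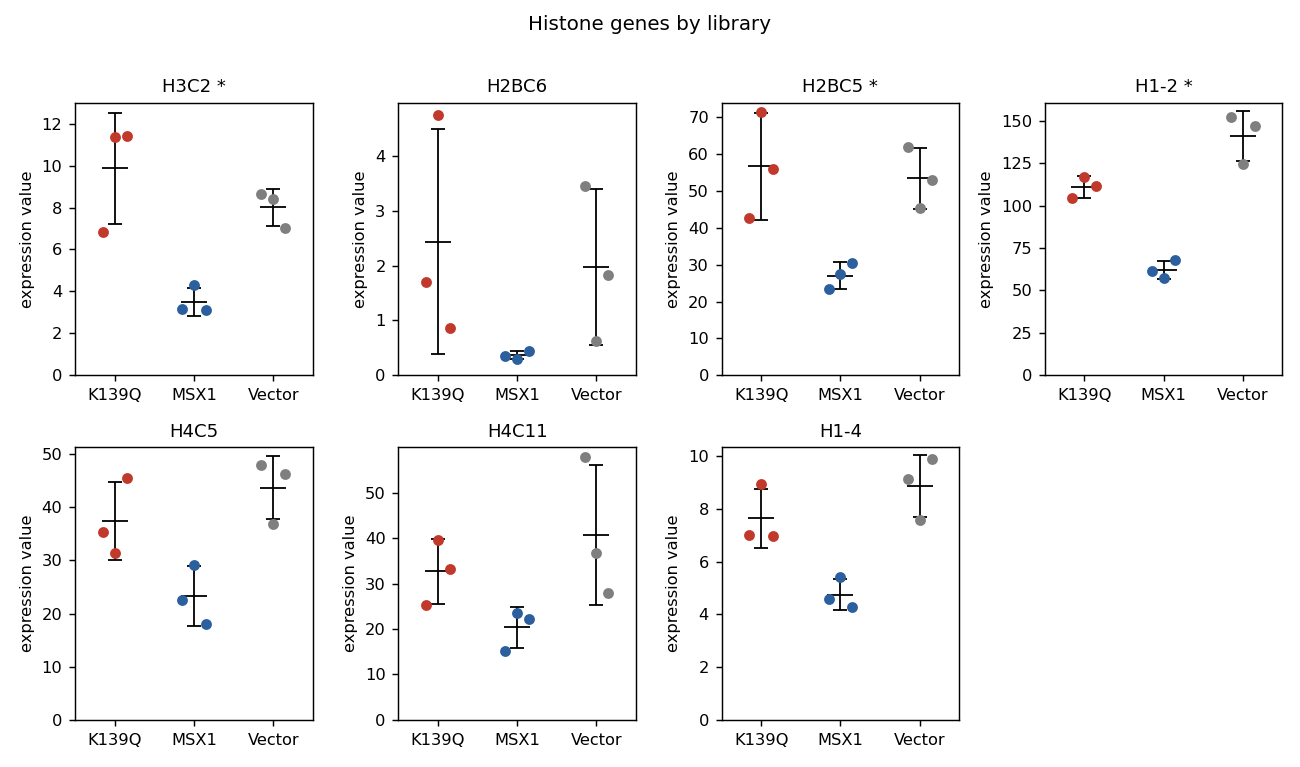
Expression value (y axis, linear, from 0) of the 7 tested histone genes in the K139Q, MSX1 and Vector groups (x axis). Points are libraries in replicate order, bars are the mean and SD of 3 libraries, and the star marks H3C2, H2BC5 and H1-2, which passed the adjusted p. In all 7 genes the 3 K139Q libraries lie above the 3 MSX1 libraries.

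The direction of a listed gene in MSX1 split the table. The 384 tested genes higher in MSX1 than in Vector by their means had a median log2 fold change over Vector of 0.84 in K139Q and 0.93 in MSX1. The 150 lower genes had -0.39 in K139Q and -0.77 in MSX1. K139Q over MSX1 itself was positive for 133 of these 150 lower genes and for 151 of the 384 higher genes. Of the 57 genes that were higher at an unadjusted p under 0.05, 48 were among the lower genes and 9 among the higher genes, EGR1 and FOSB included. Of the 28 genes (5.24%) with every K139Q library below every MSX1 library, 27 were higher in MSX1 than in Vector. Because the 2 comparisons share the MSX1 libraries and the genes were chosen on them, these values are a description.

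Heat shock genes, which were far above Vector in MSX1, gave no call between K139Q and MSX1. Only HSPB8 had no overlap, with 42.75, 31.43 and 30.19 in K139Q, against 24.86, 25.73 and 26.25 in MSX1. Of 34 listed genes, 9 were tested and 0 passed in either direction, with 6 positive, 3 negative and a median of 0.11, and 0 had an unadjusted p under 0.05 from limma. HSPA6, an inducible HSP70 chaperone, had 638, 1103 and 644 in K139Q, against 809, 718 and 675 in MSX1 and 74.8, 57.9 and 74.4 in Vector, so that K139Q libraries lay on both sides of MSX1 (log2 fold change 0.07, 95% interval -0.54 to 0.68). HSPA7, a close copy of HSPA6 with which it may share reads, was at 0.61 (limma adjusted p = 0.484), and passed without K139Q library 3 (0.0365). CRYAB, a small heat shock protein gene, was at -0.41 (limma adjusted p = 0.431).

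Developmental signaling lists had 0 genes past limma's adjusted p, and HEY2 alone had an unadjusted p under 0.05. The K139Q and MSX1 libraries did not overlap for HEY2, WNT9A and SKIL, higher in K139Q, and for LFNG, lower. Of all tested genes, 15.2% showed this pattern in the higher direction and 5.24% in the lower, so these lists are not set apart by it. For Notch signaling, 7 of 27 listed genes were tested with a median of -0.06. HEY2, a Notch target repressor, had 8.93, 9.12 and 7.78 in K139Q, against 6.18, 5.57 and 7.27 in MSX1 (log2 fold change 0.39, limma adjusted p = 0.363), and LFNG, a Notch glycosyltransferase, was at -0.31 (adjusted p = 0.541). For WNT signaling, 6 of 40 were tested with a median of -0.06 and members between -0.35 for the ligand WNT6 and 0.30 for the ligand WNT9A. For TGF-beta and BMP signaling, 3 of 41 were tested, led by SKIL, an inhibitor of SMAD proteins, at 0.46 (limma adjusted p = 0.544). Of 10 MSX1 targets that the study names, SNAI1, a repressor of epithelial genes, was tested, with 4.27, 5.34 and 2.69 in K139Q, against 4.47, 3.17 and 3.46 in MSX1 (log2 fold change 0.09, limma adjusted p = 0.891).

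Apoptosis and growth arrest genes were represented by 3 of 44 listed genes. GADD45B, a growth arrest gene induced by stress, had 130, 142 and 97.8 in K139Q, against 89.4, 76.0 and 88.1 in MSX1 and 15.4, 17.1 and 16.3 in Vector. Every K139Q library lay above every MSX1 library, yet the difference did not pass (log2 fold change 0.53, limma adjusted p = 0.227). It passed after removal of the GC trend (0.0276). BIK, a pro-apoptotic member of the BCL2 family, and CDKN1C, an inhibitor of cyclin-dependent kinases, were at -0.09 and -0.13 (limma adjusted p = 0.863 and 0.859).

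Matrix genes gave no call. Of 53 listed genes, 10 were tested, 7 of them negative, with a median of -0.14. TNC, a glycoprotein of embryonic mesenchyme, had 10.2, 7.36 and 7.71 in K139Q, against 12.6, 9.55 and 11.8 in MSX1, with overlap (log2 fold change -0.39, limma adjusted p = 0.381). THBS4 and THBS2, of the thrombospondin family, were at 0.53 and 0.44 (limma adjusted p = 0.242 and 0.296), the only 2 of the 10 with an unadjusted p under 0.05. Of 34 inflammatory genes, 5 were tested and none passed. CXCL8, a neutrophil chemokine, had 2.19, 2.25 and 1.38 in K139Q, against 0.96, 0.83 and 0.74 in MSX1 and 0.38, 0.20 and 0.15 in Vector, in which no groups overlapped (log2 fold change 0.66, limma adjusted p = 0.0991). Without K139Q library 3, CXCL8 passed (0.0365). TIPARP and CYP1A1, both targets of the aryl hydrocarbon receptor, were at 0.41 and 0.26 (limma adjusted p = 0.524 and 0.539). Both had every K139Q library above every MSX1 library, as did 15.2% of all tested genes. Both were lower in MSX1 than in Vector, and 40.0% of the tested genes lower in MSX1 showed this pattern.

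Markers of other cell types did not differ past the test. EPCAM and KRT17, of 9 epithelial markers, were at -0.14 and -0.08 (limma adjusted p = 0.76 and 0.876). The 4 tested neuronal markers of 12 ranged between -0.34 for RBFOX3 and 0.26 for TUBB3. The muscle marker TNNT1 was at -0.32, with every K139Q library below every MSX1 library. The hematopoietic marker CD68 was at 0.06, and no endothelial marker was in the table.

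**Figure D4:**
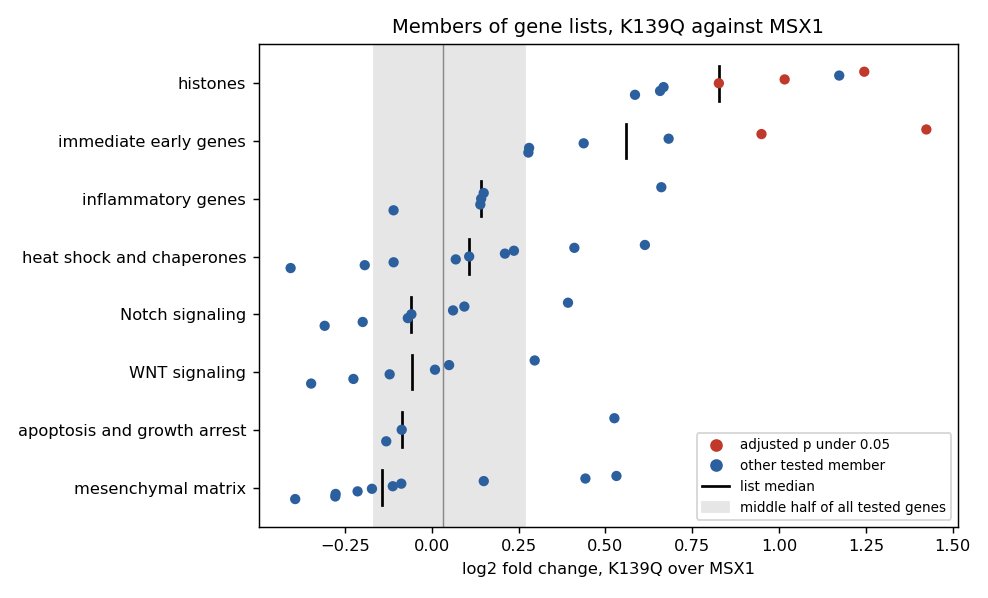
Log2 fold change of K139Q over MSX1 (x axis) of the tested members of 8 gene lists (y axis). Red points passed the adjusted p, blue points did not, black bars are list medians, and the grey band holds the middle quartiles of all tested genes, -0.17 to 0.27. Histones and immediate early genes have medians of 0.83 and 0.56, beyond the band, and the other 6 lists have medians inside it.

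Among the remaining genes with the smallest unadjusted p, all but CRIP3 were higher in K139Q, and none passed. LAT2, an adaptor of immune receptor signaling, had 3.47, 4.06 and 2.90 in K139Q, against 1.36, 1.33 and 2.07 in MSX1 (log2 fold change 0.80, limma adjusted p = 0.0893). CNN1, the actin-binding calponin of smooth muscle, had 3.62, 3.96 and 4.47 in K139Q, against 1.96, 2.08 and 2.34 in MSX1 and 0.71, 0.86 and 0.64 in Vector, with no overlap (log2 fold change 0.68, limma adjusted p = 0.147). After removal of the GC trend both LAT2 and CNN1 passed (limma adjusted p = 0.0462 and 0.0276). CRIP3, a LIM domain protein gene, had 1.26, 0.81 and 1.32 in K139Q, against 2.07, 2.99 and 2.27 in MSX1 and 1.16, 0.63 and 1.45 in Vector, so that its K139Q libraries lay among those of Vector (log2 fold change -0.69, limma adjusted p = 0.147). ALB, the serum albumin gene, was at 0.71 (adjusted p = 0.147) and passed without K139Q library 2 (0.0498). POPDC2, a cAMP-binding membrane protein gene, was at 0.96, MROH8 at 0.68 and SENP3-EIF4A1, a readthrough transcript that overlaps both of its parent genes, at 0.66 (limma adjusted p = 0.147, 0.181 and 0.181). The unnamed genes ENSG00000173867, ENSG00000275496 and ENSG00000288934 were between 0.81 and 1.07, with an adjusted p of 0.147 each from limma. ENSG00000173867 passed with only the compared groups in the fit (0.0481).

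EGR1 was among the 5 genes with the highest log2 fold change, and the genes at the extreme ends had uneven values. ENSG00000279399 had the highest log2 fold change, 1.95 (limma adjusted p = 0.147), with 21.8, 4.20 and 2.61 in K139Q, against 2.21, 1.29 and 0.00 in MSX1. ENSG00000291313 had the lowest, -2.28 (limma adjusted p = 0.242), with 0.00, 0.00 and 9.04 in K139Q, against 12.4, 8.64 and 7.94 in MSX1. In both, 1 K139Q library stood far from the other two, library 1 in ENSG00000279399 and library 3 in ENSG00000291313. Without that library, ENSG00000279399 was at 1.16 (limma adjusted p = 0.311) and ENSG00000291313 at -3.39 (0.0365). Without library 3, which keeps its highest value, ENSG00000279399 was at 2.49 (0.0365). CENPBD1P and ENSG00000286231 were at 1.42 and 1.28. CENPBD1P passed with only the compared groups in the fit (0.0317), and ENSG00000286231 passed without K139Q library 3 (0.0301). TUBBP5, a tubulin pseudogene whose reads may belong to a parent gene, had 0.73, 0.00 and 0.00 in K139Q, against 3.26, 0.16 and 3.65 in MSX1 (log2 fold change -1.24, limma adjusted p = 0.224), and passed without MSX1 library 2 (0.0259). ENSG00000277701 and ENSG00000276101 were at -0.81 and -0.74.

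A direct contrast with K139R asks whether the acetylation mimic is set apart from a mutant that cannot be acetylated at this residue. Its log2 fold change does not use the MSX1 libraries. They do enter the spread shared by all groups in the fit, the filter and the authors' choice of genes. Of 534 genes, 1 (0.187%) passed in either direction. This antisense gene, ENSG00000254721, had 0.35, 0.00 and 0.00 in K139Q, against 1.07, 1.02 and 0.82 in MSX1, 2.64, 1.78 and 4.90 in K139R and 2.66, 4.09 and 1.86 in Vector. Its K139Q libraries were the lowest of all groups (log2 fold change -1.82 over K139R, limma adjusted p = 0.00518). It did not pass when the compared groups alone were fitted (0.0677), when the pseudocount was 5 (0.208), under quantile normalization (0.0915) and with the GC trend removed together with the replicate block (0.0768). Whether strand was used in counting is not given in the sources used here, so reads from the opposite strand may be included. Without adjustment, 50 genes (9.36%) were under 0.05. Without K139R library 1, 26 genes passed.

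None of the 5 genes that rose over MSX1 differed between K139Q and K139R past the test (adjusted p from 0.43 to 0.764 from limma). EGR1 had 28.1, 26.0 and 21.5 in K139R, below its 2 highest K139Q libraries and on both sides of the lowest, with a log2 fold change of K139Q over K139R of 0.60 (95% interval 0.10 to 1.09). FOSB had 5.55, 4.78 and 3.85 in K139R, below all K139Q libraries (log2 fold change 0.56, 95% interval 0.16 to 0.95). H1-2 had 105, 104 and 96.6 in K139R, which overlapped K139Q (log2 fold change 0.12, 95% interval -0.22 to 0.45). The intervals are unadjusted and wide, so the mutants are neither shown to differ nor shown to be alike at these genes. For EGR1, H3C2, H1-2 and H2BC5, every K139R library also lay above every MSX1 library, whereas FOSB overlapped. The median log2 fold change of K139R over MSX1 was 0.58 for the histone genes and 0.21 for the immediate early genes. For DUSP16 it was 1.12. The direct contrast thus does not decide whether the rises over MSX1 are particular to K139Q.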

How the data were processed

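RNA-seq libraries were prepared by poly(A) selection with a stranded kit, per the labels. The deposited table holds a score per gene and library: the authors took the natural logarithm of an expression value plus 1 and scaled it per gene over the 12 libraries (mean 0, SD 1). The submitters' processing notes name RSEM, whereas the study's methods name featureCounts. Aligner, build and unit are not given in the sources used here, and for depth the study's methods give only a target per sample. The authors listed the 666 genes because they differed between MSX1 and Vector.

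Expression values, rounded to 0.01, were recovered for all 666 genes from the fact that each is a whole number of such steps. Genes with a group mean of at least 1 in at least 1 group were tested with limma 3.58.1 in R 4.3.3 on log2(value + 1), with 12 libraries and 4 groups in one fit. The p was adjusted by the Benjamini-Hochberg method over the 534 tested genes, with a threshold of 0.05. This log-scale test replaces the count test named in the study's methods, since the table holds no counts. It was tested first on simulated data with independent noise per gene. The simulation did not imitate shifts of whole libraries, a GC trend or the choice of genes on the MSX1 libraries, so it does not cover these features. Named genes are MSX1, each gene past the test, those with the next smallest p up to 20 in all, the 5 highest and 5 lowest log2 fold changes, genes past the test against K139R, and members of 12 gene lists and 6 marker lists. A gene that this rule selects is not reported here. Members and lists were chosen with earlier results of these data known.

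Libraries are numbered by their titles, which match the batch tag of the labels. For 2 of the 3 MSX1 libraries the library names carry another number. As a check of the pairing, the deviations from the group means of same-numbered K139Q and MSX1 libraries correlated across genes at 0.00, -0.10 and 0.08 by titles, and at 0.13, 0.04 and 0.08 by library names. Blocked values are given because the labels call the number a batch. The alternatives were another pseudocount (0.1 or 5), no filter, a filter at a mean of 5, fits with the compared groups only, quantile normalization, median centring, both replicate blocks, removal of a GC trend (GENCODE 29 transcripts), an intensity trend, leaving out each library, and plain ratios of means. Promoters are from the RefSeq table of GRCh38.p14.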

Additional observations from a re-analysis of the deposited data

How the results depend on the processing

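The count of genes past the adjusted p in K139Q against MSX1, 5 as reported, was 3 with a pseudocount of 0.1 (EGR1, H3C2 and, lower in K139Q, ENSG00000254721), 8 with only the compared groups in the fit (CENPBD1P, ENSG00000285565 and ENSG00000173867 beside the reported calls), 9 after removal of the GC trend and 3 with an intensity trend. Of those 9, ENSG00000277701 was lower in K139Q, whereas all 5 of the reported calls were higher. H3C2, without a GC value, could not enter that setting. With the replicate block by titles and batch tag the count was 3 (EGR1, FOSB and H3C2), with the block by library names 1 (EGR1), and with the GC trend removed together with the replicate block by titles 3. Leaving out 1 library gave counts of 2 to 10, with 2 without K139Q library 2 or MSX1 library 1, 3 without MSX1 library 2 or 3, and 10 without K139Q library 3. Against K139R, 1 gene passed as reported, 0 with a pseudocount of 5, the stricter filter, only the compared groups, quantile normalization or the GC trend removed with the block, and 1 to 26 when 1 library was left out, 26 without K139R library 1. The gene could not be tested under the stricter filter. The log2 fold change of MSX1 stayed between 0.47 and 1.22 and did not pass in any setting. The median of all tested genes lay between -0.06 and 0.11. None of the 90 named genes and list members reversed past the test. Beyond the calls named above, the block changed no other call. With 3 libraries a group, no depth per library and genes chosen on the MSX1 libraries, small differences are not resolved.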
